A study of Mus musculus with 6 samples.

Results

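The genes described here are 10 transcription factors and response genes of the AP-1 and immediate early group, chosen by name from the gene table, which holds 54146 genes. They are the Fos family (Fos, Fosb, Fosl1 and Fosl2), the Jun family (Jun, Junb and Jund), Egr1, Ier2 and Ier3, and each name matched a single row. They were measured by RNAseq in D2A1, an established mouse mammary tumor cell line grown as spheroids in Matrigel in medium with serum. The spheroids received 50 nM recombinant SLURP1 (rSLURP1, 3 libraries) or 50 nM recombinant GST (rGST, 3 libraries) as the control protein, and by the study's methods they were harvested on the fifth day, with fresh protein supplied daily in its sphere assays. SLURP1 is a small secreted Ly6-type protein, and the treatment was used to ask which genes it changes in these tumor cells. The cells are of a single line and no label gives separate cultures, so p-values measure only the spread between these libraries, which may be technical.

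AP-1 is a dimer of basic leucine zipper proteins. Fos proteins bind DNA only as partners of Jun proteins, whereas Jun proteins can also pair with each other. Immediate early genes are those whose transcription rises within minutes of a growth factor, stress or adhesion signal without new protein synthesis, largely through MAP kinases, serum response factor and its ETS partners, and CREB. Fos, Junb, Egr1 and Ier2 are classical members with short-lived transcripts, whereas Fosl1, the gene of FRA-1, is a delayed target of ERK signaling that is high in many invasive mammary tumor lines.

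Levels are given as TPM, a unit that corrects for transcript length and brings every library to the same total, so levels of different genes can be compared. Changes are log2 fold changes of TPM + 1, rSLURP1 over rGST, from limma, each with its standard error (SE). A gene is called where its Benjamini-Hochberg adjusted p reached 0.05 over 12301 tested genes, those that had 1 TPM or more in 3 or more of the libraries. All 10 genes passed this filter. TPM keeps no read depth, so depth and counting error are unknown. Genes at 1 TPM or more numbered 12390 to 12449 in rGST libraries and 11906 to 11981 in rSLURP1 libraries. The median change of all tested genes was -0.33 as deposited, and it was 0.00 after the libraries were scaled by the median ratio of their genes, so values with this scaling are given beside those as deposited for named genes whose call it altered, cell type markers apart. Of called genes, 87.1% were lower with rSLURP1 as deposited and 49.2% with median-ratio scaling.

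The cell type label was checked against marker genes. Of 8 mammary epithelial markers, only Krt18 (195.6 ± 4.13 and 197.7 ± 1.68 TPM in rGST and rSLURP1 libraries, SD, n = 3 each) and Krt8 (1.56 ± 0.140 and 0.697 ± 0.163) passed the filter, and Epcam, Krt5 and Krt14 were listed at 0 in all 6 libraries. Epithelial markers other than Krt18 were thus nearly absent, while 6 of 8 fibroblast and mesenchymal markers were expressed, and all 6 were lower with rSLURP1. Their summed level was 2252 to 2479 TPM with rGST and 725.4 to 779.5 TPM with rSLURP1, led by Vim, Dcn and Pdgfra in the controls, with Col1a2 and Thy1 under 1 TPM throughout. The falls were of unlike size. Dcn went from 580.7 ± 58.2 to 5.46 ± 0.379 TPM and Lum from 176.7 ± 15.7 to 0.907 ± 0.284 TPM. Vim went from 1259 ± 78.4 to 664.5 ± 30.3 TPM (SD, n = 3 each). Of 8 blood and endothelial markers, 7 stayed under 1 TPM in every library, and Cd68 was at 3.77 ± 0.265 and 9.60 ± 1.61 TPM. The part of this shift in the results for AP-1 genes was not tested. In bulk RNA, a change in the number of cells that express a gene and a change in transcript per cell cannot be told apart.

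Promoter sequence is shown for 3 genes, because Fos and Jun are the AP-1 partners whose transcripts differed most in their change and Fosb holds a match to the EGR1 site. RefSeq windows of the mouse genome (GRCm38.p6, 250 bases before to 50 after the start) were given for 7 of the genes and not for Fosl1, Egr1 and Ier2. The stretches run 5′ to 3′ on the strand of the gene, and capitals mark letters that match a searched motif on either strand: TGANTCA (AP-1 site), TGACNTCA (the longer AP-1 or CRE form), TGACG (CRE core), TATAAA (the core of the TATA element), GCGNGGGCG (EGR site) and the CArG box of serum response factor. TGACG lies within those forms of TGACNTCA that have G at the open base.
Fos, chr12:85473640-85473889, plus strand: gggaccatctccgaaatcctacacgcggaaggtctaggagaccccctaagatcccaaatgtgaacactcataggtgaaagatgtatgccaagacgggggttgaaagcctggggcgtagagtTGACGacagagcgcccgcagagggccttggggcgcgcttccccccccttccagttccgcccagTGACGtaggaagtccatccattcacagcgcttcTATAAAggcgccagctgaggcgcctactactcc
Jun, chr4:95052223-95052472, minus strand: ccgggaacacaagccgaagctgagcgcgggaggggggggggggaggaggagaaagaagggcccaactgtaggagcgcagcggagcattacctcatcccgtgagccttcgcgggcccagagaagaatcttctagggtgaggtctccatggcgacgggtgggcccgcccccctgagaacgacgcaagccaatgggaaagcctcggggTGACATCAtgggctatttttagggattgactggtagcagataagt
Fosb, chr7:19310066-19310125, minus strand: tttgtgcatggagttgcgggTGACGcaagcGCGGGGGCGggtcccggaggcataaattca

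The Fos window held 2 CRE cores, with first bases 129 and 66 bases before the start, and a TATA box 33 bases before it. The Jun window held no TATA box and a single TGACNTCA match 45 bases before the start, a form that 8.83% of the 32851 windows in the RefSeq table contain. EGR sites were matched in the windows of Fosb, 50 bases before the start, and of Fosl2, 79 bases before it, against 5.55% of all windows. CRE cores also occurred in the windows of Fosb, 60 bases before the start, and Junb, 106 bases before it, so that 3 of the 7 windows held one, against 20.81% of all windows. TATAAA was also matched in Junb, beginning at the first base of the transcript, so that 2 of the 7 windows held it, against 13.62% of all windows. No window of the 7 genes held TGANTCA (7.81% of all windows) or a CArG box (1.63%), which says only that these letters are not in the stretch searched. A match is a description of letters and no evidence that a factor binds there.

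With rSLURP1, 5 of the 10 genes rose (Fos, Fosl1, Jund, Ier2 and Ier3), 3 fell (Egr1, Jun and Junb) and 2 were not called (Fosb and Fosl2). Of all tested genes, 8.66% were called higher and 58.5% lower as deposited. Their median log2 fold change was 0.28, beside the -0.33 of all genes. After median-ratio scaling, 8 of the 10 were called higher and only Egr1 lower, beside 26.0% and 25.2% of all genes called in those directions. At a fold change of at least 2, Fos alone was called as deposited, where 1.15% of all tested genes were called higher and 7.06% lower. With median-ratio scaling, Fos, Fosl1 and Ier3 passed that threshold, beside 2.49% of genes higher and 3.76% lower. Every rSLURP1 library lay above every rGST library for 5 genes and below for 3 genes, whereas 9.75% of all tested genes were separated upward and 61.7% downward.

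**Figure D1:**
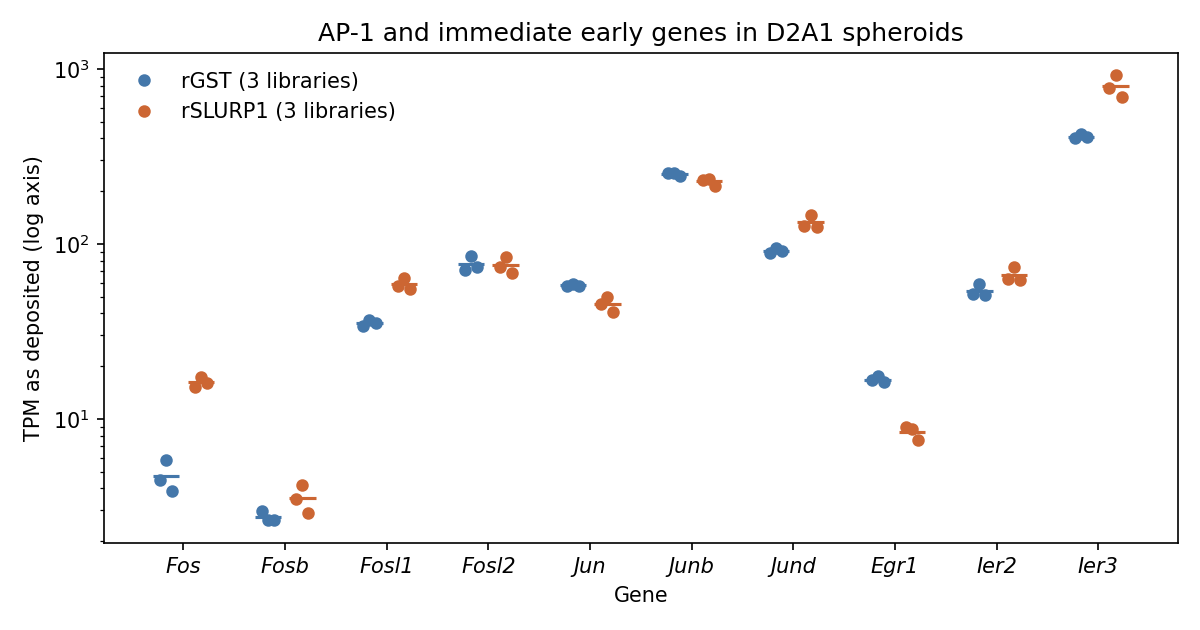
Level of each gene in TPM as deposited, on a log axis, in the 3 rGST and the 3 rSLURP1 libraries (points), with a bar at each mean. The groups are furthest apart for Fos, at 3.88 to 5.83 TPM with rGST and 15.14 to 17.35 TPM with rSLURP1, and they overlap for Fosb and Fosl2.

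Fos, the prototype of the family, had the largest change. Its level was 4.45, 5.83 and 3.88 TPM in rGST libraries 1 to 3 and 15.14, 17.35 and 15.94 TPM in rSLURP1 libraries 1 to 3. The lowest treated library thus stood 9.31 TPM above the highest control. Mean levels were 4.72 ± 1.003 and 16.1 ± 1.12 TPM (SD, n = 3 each), 3.42-fold higher with rSLURP1, with a log2 fold change of 1.60 (SE 0.133, limma adjusted p = 4.06e-05). It ranked 62 from the highest increase among the tested genes, although its control level ranked only 10278 of them. The gene (ENSMUSG00000021250.13) spans 85473890 to 85477273 of chromosome 12 on the plus strand and its longest transcript has 2108 bases in 4 exons (GRCm38, GENCODE M21, for this and the following genes).

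Fosl1 encodes FRA-1, a Fos protein without the long transactivation domain of FOS. It was at 34.14, 36.87 and 35.20 TPM with rGST and at 57.30, 63.70 and 55.44 TPM with rSLURP1. All treated libraries were higher than all controls, and the control values lay within a narrow range. Its log2 fold change was 0.71 (SE 0.0644, limma adjusted p = 5.96e-05), a 1.66-fold rise of the mean. Fosl1 (ENSMUSG00000024912.5, chromosome 19, 5447547 to 5455946, plus strand) overlaps Ccdc85b on the opposite strand over 2767 bases, and Ccdc85b was at 67.50 to 74.71 TPM with rGST and 43.98 to 50.05 TPM with rSLURP1. Whether the counting used strand is not given in the sources used here, so reads of these genes may be mixed, and the part of this overlap in the values of Fosl1 was not tested. The version of its identifier in the table is not that of GENCODE M21, so its gene model there may differ from the one that gave these coordinates.

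Fosl2, the gene of FRA-2, was the most abundant Fos family transcript in both groups. Its levels were 70.46, 85.11 and 73.25 TPM with rGST and 73.97, 84.54 and 68.46 TPM with rSLURP1, so the groups covered nearly the same range. The log2 fold change was -0.01 with a 95% confidence interval from -0.24 to 0.21 (limma adjusted p = 0.917). With median-ratio scaling it was 0.34 (adjusted p = 0.0144), which passed the threshold. As deposited, the value for Fosl2 turned to 0.068, 0.0012 and 0.056 without rGST library 2, rSLURP1 library 1 and rSLURP1 library 3. Fosb was the lowest of the 10 genes in both groups, at 2.63 to 2.99 TPM with rGST and 2.88 to 4.21 TPM with rSLURP1. The groups overlapped for Fosb, with a log2 fold change of 0.26 (95% confidence interval -0.07 to 0.58, limma adjusted p = 0.137) that passed the threshold after the libraries were rescaled (0.52 with median-ratio scaling, adjusted p = 0.0141).

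The Jun genes moved in different directions as deposited. Jund encodes the Jun protein that is present in most resting cells and varies least with stimulation. It was at 88.44, 94.12 and 90.80 TPM with rGST and 127.18, 145.97 and 125.45 TPM with rSLURP1, without overlap. Its log2 fold change was 0.54 (SE 0.0641, limma adjusted p = 2.35e-04), 1.46-fold on the mean TPM, and was 0.89 with median-ratio scaling. Jund (ENSMUSG00000071076.6, chromosome 8, 70698949 to 70700616, plus strand) is a gene of 1 exon, and the antisense gene Gm11175 within it was at 2.49 to 5.10 TPM over all libraries.

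Jun, the founding partner of FOS, was at 57.09, 58.64 and 57.68 TPM with rGST and 45.25, 49.42 and 40.55 TPM with rSLURP1. All treated libraries were lower, and the mean fell by 22.0%, but the treated libraries were more spread (SD 4.44 TPM) than the controls (SD 0.782 TPM). The log2 fold change was -0.36 (SE 0.0721, limma adjusted p = 0.00326), which lay -0.03 from the median of all genes. With median-ratio scaling it was -0.01 (95% confidence interval -0.16 to 0.14, adjusted p = 0.920). Jun (ENSMUSG00000052684.4, chromosome 4, 95049034 to 95052222, minus strand) has 1 exon and is overlapped by the antisense gene Junos, which stayed between 0.40 and 2.70 TPM.

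Junb, which encodes a Jun protein that can restrain JUN, was the highest AP-1 transcript in every library. It was at 255.16, 252.79 and 243.51 TPM with rGST and 231.39, 236.01 and 213.83 TPM with rSLURP1. The groups were separated by 7.50 TPM, a small gap beside levels above 200 TPM. Its log2 fold change was -0.14 (SE 0.0467, limma adjusted p = 0.0283), and it became 0.21 with median-ratio scaling (adjusted p = 0.00434), where Junb was called higher. The direction for Junb therefore rested on the scaling. Its call as deposited was lost without rGST library 1 (limma adjusted p = 0.0892), rGST library 2 (0.0786) or rSLURP1 library 3 (0.0794). Junb (ENSMUSG00000052837.6, chromosome 8, 84974484 to 84978718, minus strand) overlaps Prdx2 on the opposite strand over 351 bases, and Prdx2 was at 464.82 to 523.63 TPM. As for Fosl1, reads of the overlapping genes may be mixed, and the part of this overlap in the values of Junb was not tested.

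**Figure D2:**
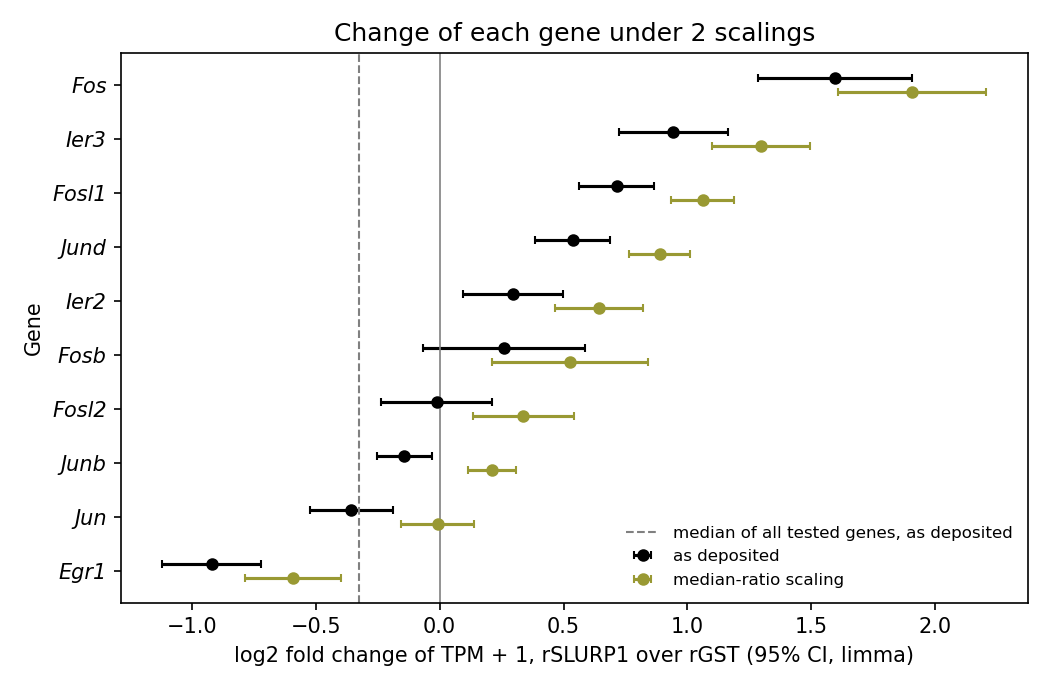
Log2 fold change of TPM + 1, rSLURP1 over rGST, for each gene with its 95% confidence interval from limma (3 libraries a group), as deposited (black) and with median-ratio scaling (olive). The dashed line at -0.33 is the median of all tested genes as deposited, and Egr1 is the one gene below 0 with its whole interval under both scalings.

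Because library scaling cancels out of a ratio of genes in the same library, the make-up of each family was compared as shares of its summed TPM. Fosl2 made up 62.89%, 65.25% and 63.71% of Fos family TPM with rGST and 49.36%, 49.79% and 47.97% with rSLURP1. In the same order of treatments, Fosl1 was at 29.8 ± 1.32% and 38.2 ± 0.666%, Fos at 3.94 ± 0.548% and 10.5 ± 0.585% (SD, n = 3 each), and Fosb at 2.33 ± 0.327% and 2.27 ± 0.233%. In the Jun family, Jund was at 22.07%, 23.21% and 23.16% with rGST and 31.49%, 33.84% and 33.03% with rSLURP1. Junb was at 62.7 ± 0.846% and 56.1 ± 1.31% and Jun at 14.5 ± 0.234% and 11.1 ± 0.398% (SD, n = 3 each). Apart from Fosb, no share overlapped between the treatments, and each gave the smallest p-value that 3 libraries against 3 allow (exact permutation test, two-sided, p = 0.1). Shares in a family add up to its whole, so they are not separate results and a share can fall without a fall in level. For Fosl2, mean TPM as deposited was 76.3 with rGST and 75.7 with rSLURP1.

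**Figure D3:**
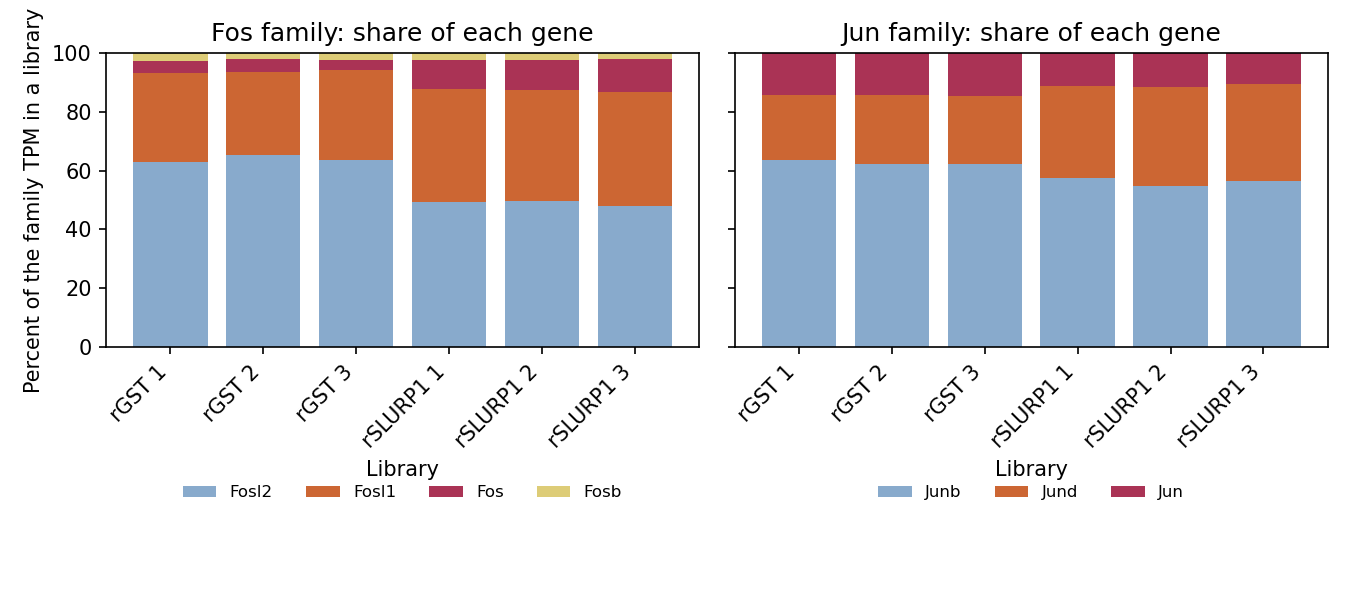
Share of each gene in the summed TPM of the Fos family (left) and of the Jun family (right), in percent, with 1 bar for each library. The Fosl2 segment is smaller in every rSLURP1 library (47.97% to 49.79%) than in every rGST library (62.89% to 65.25%), and the Jund segment is larger.

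The summed Fos family was at 119.1 ± 9.89 TPM with rGST and 154.1 ± 14.03 TPM with rSLURP1, and its libraries did not overlap (exact permutation test, two-sided, p = 0.1). The summed Jun family was at 399.4 ± 6.87 and 405.0 ± 25.8 TPM, with overlapping libraries (exact p = 0.8). Unlike the shares, these sums as deposited depend on library scaling, and rescaled sums were not tested. With median-ratio scaling, Jund (log2 fold change 0.89) and Junb (0.21) were called higher and Jun (-0.01) was not called. The Fos family made up 23.0 ± 1.27% of the TPM of both families with rGST and 27.5 ± 0.621% with rSLURP1. On the log2 scale, the ratio of the Fos to the Jun family was higher by 0.35 (SE 0.0647, exact permutation test, two-sided, p = 0.1), and by 0.62 when Fosl2 and Junb, the most abundant gene of each family, were left out. Jun transcripts thus exceeded Fos transcripts in all 6 libraries.

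Egr1, a zinc finger factor that is induced by ERK and serum response factor together with Fos, went the other way. It was at 16.58, 17.53 and 16.21 TPM with rGST and 8.94, 8.79 and 7.52 TPM with rSLURP1. The highest treated library was 7.27 TPM below the lowest control, and the mean fell by 49.8%. The log2 fold change was -0.92 (SE 0.0856, limma adjusted p = 6.99e-05), or -0.59 with median-ratio scaling (adjusted p = 8.78e-04), and it ranked 1106 from the largest decrease among the tested genes. The gene (ENSMUSG00000038418.7) lies on chromosome 18, 34859823 to 34864984, plus strand.

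Ier2 and Ier3 are unrelated in function despite their names. Ier3 (IEX-1), a small protein that affects survival and ERK signaling and is also induced by NF-kB and p53, was the most abundant of the 10 genes, at 401.82, 422.34 and 405.84 TPM with rGST and 778.34, 918.92 and 687.39 TPM with rSLURP1. Treated libraries were all higher and far more spread (SD 116.6 TPM) than controls (SD 10.9 TPM). Its log2 fold change was 0.94 (SE 0.0948, limma adjusted p = 9.92e-05), a 1.94-fold rise that fell short of 2-fold as deposited and passed it with median-ratio scaling (1.298) or without rSLURP1 library 3 (1.04). Ier2, a nuclear protein that is a standard marker of immediate early induction, was at 51.69, 58.90 and 50.79 TPM with rGST and 62.54, 74.06 and 62.22 TPM with rSLURP1. The groups were separated by 3.32 TPM, less than the SD of either group (4.45 and 6.75 TPM), with a log2 fold change of 0.29 (SE 0.0861, limma adjusted p = 0.0176). Ier2 lost its call when rGST library 1 (adjusted p = 0.0564) or rGST library 3 (0.0568) was left out.

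The order of levels differed between the groups in its middle and lower part. In both groups Ier3, Junb, Jund and Fosl2 came first in that order and Fosb last. With rGST, Jun (57.8 TPM) stood above Ier2 (53.8 TPM) and Fosl1 (35.4 TPM), and Egr1 (16.8 TPM) above Fos (4.72 TPM). With rSLURP1, Ier2 (66.3 TPM) and Fosl1 (58.8 TPM) stood above Jun (45.1 TPM), and Fos (16.1 TPM) above Egr1 (8.42 TPM). Neighbors whose libraries overlapped were Jun and Ier2 with rGST, and Fosl2 with Ier2 and Ier2 with Fosl1 under rSLURP1. Ratios within a library were compared for all 45 pairs of the 10 genes, and those named here were chosen after their levels were seen. The log2 ratio of Fos to Egr1 was -1.90, -1.59 and -2.06 with rGST and 0.76, 0.98 and 1.08 with rSLURP1, a difference of 2.79 (SE 0.169, exact permutation test, two-sided, p = 0.1, adjusted over the pairs 0.11). For Fosl1 to Jun it was -0.71 ± 0.036 with rGST and 0.39 ± 0.058 with rSLURP1, and for Junb to Jund it was 1.46 ± 0.060 and 0.78 ± 0.085 (SD, n = 3 each), with the same p-values. All pairs gave these p-values except Fosb with Fosl2, Jund and Ier2, and Fosl2 with Junb. The test therefore does not set the named pairs apart.

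Among treated libraries, rSLURP1 library 2 had the highest value for 9 of the 10 genes, and among controls rGST library 2 had the highest for 8. Without rSLURP1 library 2, Fos was at 1.55, Fosl1 at 0.66, Jund at 0.47, Ier3 at 0.83 and Egr1 at -0.95 on the log2 scale, and all 5 kept their call in limma, as did Ier2 at 0.21.

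Of 12 other basic leucine zipper genes whose proteins can pair with Fos or Jun, 9 were tested. Of these, 3 rose, 3 fell and 3 were not called, with a median log2 fold change of 0.04. Counts in this and the following lists stand beside 8.66% of all tested genes called higher and 58.5% lower as deposited. With median-ratio scaling those shares were 26.0% and 25.2%. Atf3, a stress-induced factor that binds AP-1 and CRE sites, rose from 7.76 ± 1.39 to 26.2 ± 6.20 TPM (SD over 3 libraries), a log2 fold change of 1.62 (limma adjusted p = 1.79e-04). Jdp2, a repressor of AP-1, rose from 15.2 ± 1.73 to 22.9 ± 0.329 TPM, and Mafk, a small MAF, had a log2 fold change of 0.25 (adjusted p = 0.0443). Maf, the gene of the large factor c-MAF, fell from 7.15 ± 0.225 to 0.400 ± 0.0656 TPM (log2 fold change -2.54, adjusted p = 2.85e-06). Atf2 and Atf7, paralogs that pair with JUN at CRE sites, fell by 0.26 and 0.41 on the log2 scale, and neither was called with median-ratio scaling (0.082 and -0.070). After that scaling 6 of the 9 genes were higher and Maf alone was lower.

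Of 28 further immediate early genes, 25 were tested, of which 7 rose, 12 fell and 6 were not called, with a median of -0.11. Those that rose most were Plk3, a stress-activated kinase (10.5 ± 0.509 to 34.8 ± 4.58 TPM), Klf2 (14.7 ± 0.599 to 42.8 ± 1.60 TPM), Rhob, a small GTPase (73.0 ± 1.20 to 205.0 ± 20.6 TPM), and Klf6 (24.1 ± 1.56 to 57.9 ± 7.13 TPM), each SD with n = 3. Those that fell most were Ctgf and Cyr61, matricellular genes that serum response factor and YAP drive, Egr3, and Zfp36l2, an mRNA decay factor. Ctgf went from 37.3 ± 2.35 to 4.52 ± 0.289 TPM and Cyr61 from 309.2 ± 27.3 to 122.9 ± 14.2 TPM. Egr3 fell from 6.71 ± 0.838 to 1.52 ± 0.314 TPM (log2 fold change -1.62, limma adjusted p = 5.12e-05), the same direction as Egr1. Egr2, named after its values were seen to complete the family, fell from 2.85 ± 0.355 to 1.40 ± 0.291 TPM (log2 fold change -0.68, adjusted p = 0.00472, and -0.45 with median-ratio scaling, adjusted p = 0.0436), and Egr4 was listed at 0 in all libraries. With median-ratio scaling 11 genes of this list were higher and 9 lower, so the balance of the list turned.

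The 20 kinases and factors upstream of these genes were all tested. As deposited 1 rose, 13 fell and 6 were not called, with a median of -0.28. Of all tested genes, 8.66% were called higher and 58.5% lower, with a median of -0.33. With median-ratio scaling 5 of the 20 were higher, 5 lower and 10 not called, beside 26.0% and 25.2% of all genes. The counts of this list thus lay near the shares of all genes. Nab2, a corepressor of EGR1 that EGR factors also induce, fell from 71.8 ± 3.61 to 27.8 ± 2.08 TPM (log2 fold change -1.34, limma adjusted p = 4.50e-06), while its relative Nab1 rose by 0.22. Srf, the serum response factor, fell from 29.3 ± 0.917 to 17.1 ± 1.19 TPM, and its coactivator gene Mkl1 fell from 25.8 ± 1.178 to 16.4 ± 0.643 TPM. Map2k7, an activator of the JNK kinases that phosphorylate JUN, fell from 66.8 ± 5.59 to 38.2 ± 2.21 TPM. Nab2, Srf, Mkl1 and Map2k7 remained lower with median-ratio scaling, at -0.995, -0.41, -0.28 and -0.44.

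Genes known as targets of AP-1 moved both ways, with 7 higher, 8 lower and 2 not called of 17 tested (18 listed). Their median was -0.18, beside the -0.33 of all genes. With median-ratio scaling 7 of the 17 were higher, 6 lower and 4 not called, and the median turned to 0.17. Among the largest rises were those of Mmp13, a collagenase (13.3 ± 1.51 to 38.6 ± 7.57 TPM), Hmox1, heme oxygenase (80.0 ± 4.02 to 189.7 ± 16.7 TPM), and Plaur, the urokinase receptor (17.1 ± 2.22 to 38.6 ± 4.91 TPM). The largest falls were those of Ccl2 (52.5 ± 12.7 to 16.9 ± 1.96 TPM), Ccnd1, cyclin D1 (60.1 ± 5.57 to 22.7 ± 0.650 TPM), Vegfa (605.4 ± 36.3 to 244.1 ± 13.1 TPM) and Mmp14, a membrane-bound collagenase (440.7 ± 8.47 to 205.7 ± 4.38 TPM). These 7 genes kept their direction and call with median-ratio scaling.

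**Figure D4:**
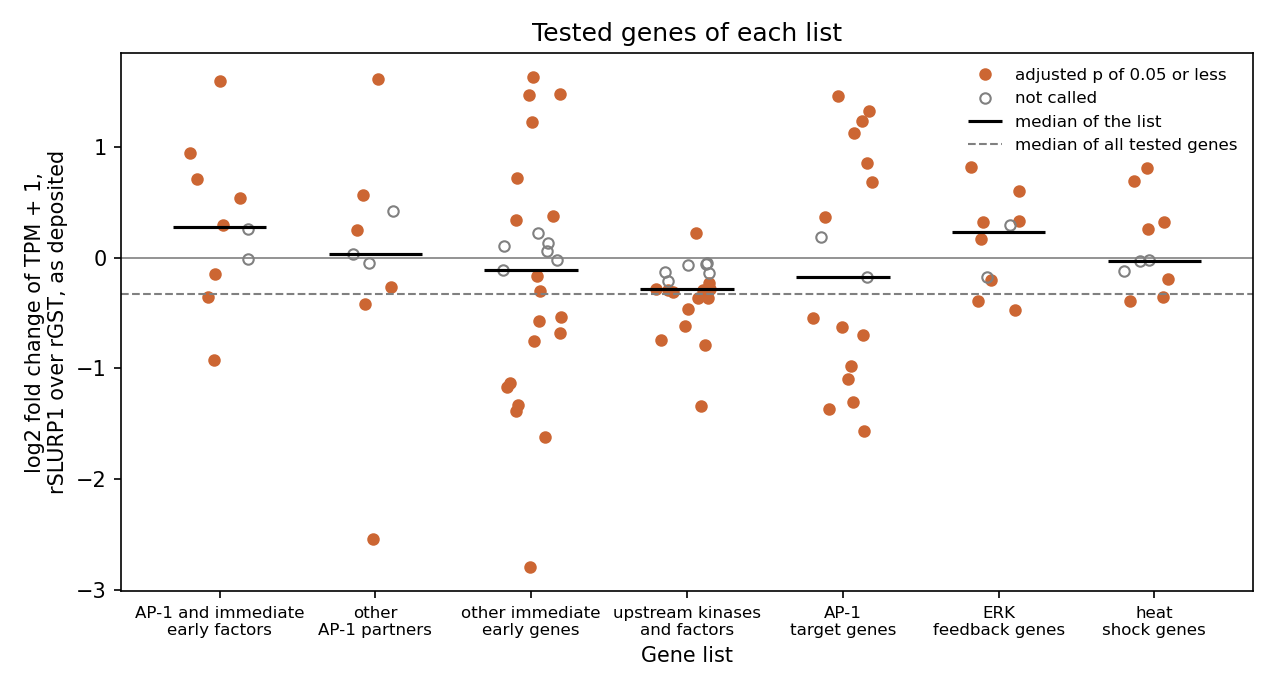
Log2 fold change of TPM + 1, rSLURP1 over rGST as deposited, of each tested gene in the 7 groups of genes, with filled points where the limma adjusted p reached 0.05. The bar of each list is its median, from -0.28 (upstream kinases and factors) to 0.28 (AP-1 and immediate early factors), and the dashed line is the median of all tested genes (-0.33).

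The transcripts of ERK feedback genes, which share inducers with Fosl1 and Ier3, had a median of 0.23, with 5 of 10 higher, 3 lower and 2 not called. Etv5 and Etv4, ETS factors induced by ERK, rose by 0.82 and 0.60 on the log2 scale and Phlda1 and Dusp4 by 0.33 each, whereas Dusp5, Spred1 and Spred2 fell by 0.47, 0.39 and 0.20, and with median-ratio scaling Dusp5 (-0.18) and Spred1 (-0.047) were not called and Spred2 (0.14) was called higher. With median-ratio scaling 7 were higher and none was lower. Heat shock genes were examined because cell stress at harvest can raise both them and immediate early genes. Of 10 tested, 4 rose, 3 fell and 3 were not called, with a median of -0.03. Hspb1 and Hspa1b had the largest rises (41.2 ± 1.82 to 73.2 ± 5.56 TPM and 8.56 ± 0.715 to 14.5 ± 1.54 TPM), Hspe1 and Hspa8 rose by 0.32 and 0.27, and Dnajb1, Dnaja1 and Hspd1 fell by 0.39, 0.35 and 0.19, and with median-ratio scaling Dnajb1 (-0.042) and Dnaja1 (0.0029) were not called and Hspd1 (0.16) was called higher. The near-identical Hspa1a and Hspa1b may share reads. With median-ratio scaling 8 were higher and none was lower, and the part of heat shock in the values of AP-1 genes was not tested.

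The tested genes whose pattern over the 6 libraries was nearest to that of Fos, by the root mean square difference of centred log2(TPM + 1), were Selp (0.128), Slfn2 (0.134) and Ppm1j (0.150), all low in controls as Fos was. Nearest to Jun were Rrn3 (0.0151), Aars2 (0.0195) and Atp6v1a (0.0204), and nearest to Egr1 were Pla2g15 (0.0383), Arid3a (0.0423) and Tiparp (0.0461). This distance includes the difference between the groups, so genes of like change come out near. Selp, Slfn2 and Ppm1j had log2 fold changes of 1.59, 1.61 and 1.54, beside 1.60 for Fos. A near match is therefore no separate evidence of a shared pattern. The distances were larger for Fos, whose change was among the largest and whose control level was low, and the reason was not tested.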

How the data were processed

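RNAseq of D2A1 spheroids in 6 libraries was grouped by the sample labels. The deposited values are TPM per gene and library, which the authors obtained with RSEM (1.3.3) after trimming (cutadapt 1.18) and STAR alignment (2.5.2b) to mm10, with versions from the submitters' processing notes. The study's methods name GENCODE M12 as annotation, whereas coordinates here are from GENCODE M21 on the same build. Library preparation is TruSeq mRNA in the labels but Smart-seq2 in the methods.

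From the deposited TPM, log2(TPM + 1) was tested with limma (3.58.1, R 4.3.3, eBayes with trend, no block), with Benjamini-Hochberg adjustment over 12301 genes. Genes were called at an adjusted p of 0.05 alone. The study also required a 2-fold change, and calls under both criteria together are given separately. Ratios within a library were tested by exact permutation (scipy 1.17.1), where 3 libraries against 3 cannot go below p = 0.1. In simulated data over 12301 genes, 93.1% of 87 genes changed by 1 on the log2 scale and 100% of 113 changed by 1.5 were recovered, all drawn from genes with a mean log2 value above 3, and 10 of 12101 unchanged genes were called. The simulation held no smaller change and no shift common to all genes. It therefore does not bear on calls of smaller changes or on the choice of scaling. Members, lists and tests were chosen with earlier results of these data known. In each list, up to 4 called genes in each direction with the largest change are named, plus the 3 genes nearest to Fos, Jun and Egr1. A gene that this rule names among AP-1 targets is not reported here. Alternatives were a pseudocount of 0.1, no filter, median-ratio and quantile scaling, eBayes with no trend, a replicate block, leaving out each library, and, added after the data were seen, a loess correction (span 0.3) for GC content and length of transcripts.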

Additional observations from a re-analysis of the deposited data

How the results depend on the processing

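Fos, Fosl1, Jund and Ier3 stayed higher and Egr1 lower, all with a call, in all 14 alternatives run. Log2 fold changes ranged from 1.49 to 1.99 for Fos, 0.66 to 1.06 for Fosl1, 0.47 to 0.89 for Jund, 0.83 to 1.298 for Ier3 and -0.99 to -0.48 for Egr1. Of the members, 8 were called higher and 1 lower after median-ratio scaling and after the correction for length and GC, blocked or not. After quantile normalization, 7 were called higher and 1 lower. Jun lost its call after median-ratio scaling (-0.01) and quantile normalization (-0.04) and reversed to 0.050 after the length and GC correction, blocked or not. Under those 3 settings in that order, Junb reversed to 0.21, 0.061 and 0.14, and Fosl2 to 0.34, 0.27 and 0.47. All of these were called higher except Junb after quantile normalization (limma adjusted p = 0.267). The median of all genes, -0.33 as deposited, was -0.0012, 0.0195 and 0.0316 under these settings. Junb lost its call without a filter (adjusted p = 0.0573), without trend (0.0752), and without rGST library 1, rGST library 2 or rSLURP1 library 3 (up to 0.0892), and Fosl2 ranged from -0.094 to 0.068 with 1 library left out. Ier2 lost its call without a filter (0.0535).

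The number of genes called ranged from 7561 to 7905 with 1 library left out (8265 with all), that of members from 6 to 8, of members higher from 4 to 5 and lower from 2 to 3, and of list genes from 63 to 68. The log2 ratio of the families then ranged from 0.31 to 0.41, and was 0.62 without Fosl2 and Junb. With the replicate block, 7962 genes and 8 members were called and no member changed its call. Deviations of same-numbered libraries had correlations of -0.061 to -0.034 over all tested genes, and no library correlated best with its own number. Among the members, library 2 was the highest for 8 of 10 genes with rGST and 9 with rSLURP1, and the block lowered the SE of Fosl2 from 0.095 to 0.052 and of Ier2 from 0.086 to 0.047. Depth is unknown, so its effect on Fosb and Fos, the lowest genes, could not be assessed.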
